A study of Mus musculus with 12 samples.

Results

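The comparison described here sets mouse leukemia carrying the fusion BRD9-NUTM1 (BN1) against mouse leukemia carrying the fusion MLL-ENL (ME). Its members are the 3 BN1 and the 3 ME libraries, 6 of the 12 in the count table, and the 15332 of 35976 genes that passed a filter on low counts. Genes LOC101056014 and Lars2 were left out by the rule that defines the comparison. All groups are bone marrow cells of strain C57BL/6 sorted for CD45.2, the allele of the leukocyte surface protein CD45 that marks these cells, and sequenced as polyA RNA. The genotype of the BN1 libraries is CD45.2(+) BRD9-NUTM1 and that of the ME libraries is CD45.2(+) MLL-ENL. A further 3 libraries of CD45.2(+) MLL-AF9 leukemia (MA9) and 3 of normal CD45.2(+) marrow (WT) were in the same fit and are cited for single genes. The labels name no treatment. They also do not give the age of the animals, the cells that received the fusion, the vector or the host. Whether replicates are separate animals is not said either, and the spread behind each p-value may thus be technical rather than biological.

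BRD9 is a bromodomain subunit of the non-canonical SWI/SNF chromatin remodeling complex, and NUTM1 is a protein normally made in the testis that binds the histone acetyltransferase p300. NUTM1 rearrangements occur in leukemia of infants. MLL (gene Kmt2a) is a histone methyltransferase that holds Hox genes active, and MLL-ENL joins its DNA-binding part to ENL (gene Mllt1), a member of the elongation machinery. MLL fusion leukemia is known for high expression of the later HoxA genes and their cofactor Meis1. Hox genes encode homeodomain transcription factors, lie in clusters and are normally switched off as blood cells mature.

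The 6 libraries held 18292636 to 25732049 counts each. Log2 CPM (CPM, counts per 1000000 counts of scaled library size) correlated across genes at r = 0.992 to 0.994 within each leukemia and at 0.921 to 0.924 between them; genes are not independent replicates. ME replicate 3 stood apart in the left-out genes, which took 1.80% of its counts against 0.046% to 0.076% in the other libraries, and every result below was computed without them. Leaving this library out gave 9670 calls, 4772 higher and 4898 lower in BN1. Of 593 genes named by rule, 21 kept their direction but lost their call. Another, Mycl, described below, rests on this library and had a log2 fold change of 0 without it. Ptprc, which encodes CD45, was present at 509, 514 and 475 CPM in the BN1 libraries and 319.6, 317 and 334 CPM in the ME libraries, but its count does not tell the alleles apart. Transcripts of the Y-linked genes Ddx3y, Eif2s3y and Kdm5d were at 0 in every BN1 library and at 0 to 0.241 CPM in the ME libraries, while Xist, the RNA of the inactive X chromosome, was at 984, 863 and 841 CPM in BN1 and 894, 933 and 905 CPM in ME. At these trace levels all 3 Y-linked genes were called lower in BN1 (adjusted p = 2.9e-04 for Ddx3y, 3.3e-04 for Eif2s3y and 0.026 for Kdm5d), and Xist was not called. The MA9 libraries held 28.9 to 59.5 CPM of the Y-linked genes.

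The mouse genes of the fusion partners gave no check of the labels. Nutm1 stood at 1.07, 0.812 and 0.768 CPM in BN1 and 0.724, 0.589 and 1.61 CPM in ME, and its log2 difference of -0.10 ± 0.36 (SE) did not pass the test (adjusted p = 0.836). Brd9 was not called either, at a log2 difference of 0.01 ± 0.05 (adjusted p = 0.906). Kmt2a was higher in BN1 (0.30 ± 0.07) and Mllt1 lower (-0.46 ± 0.06), both called. The fusion transcripts themselves were not analysed here.

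Most tested genes could be told apart between the leukemias at this depth, largely by small amounts. By edgeR's quasi-likelihood test with Benjamini-Hochberg adjustment over all tested genes, 9911 genes (64.6%) were called at an adjusted p under 0.05, 4918 (32.1%) higher and 4993 (32.6%) lower in BN1. The median absolute log2 fold change was 0.44, and the middle 50% of genes lay between -0.44 and 0.45. A change of at least 2-fold was called for 3392 genes (22.1%), 1743 higher (11.4%) and 1649 lower (10.8%), and at least 8-fold for 434 higher and 592 lower. The 3 values of each group did not overlap for 10253 genes (66.9%). Large changes were more common below 10 CPM than above: 28.9% of 2668 genes under 1 CPM, 42.5% of 3077 genes at 1 to 10 CPM, 14.9% of 6923 genes at 10 to 100 CPM and 10.4% of 2664 genes of at least 100 CPM were called with at least a 2-fold change. Called is used below for an adjusted p under 0.05 in this test, log2 values are BN1 minus ME with their standard error, and a share of a gene list is to be read beside these shares of all tested genes.

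**Figure D1:**
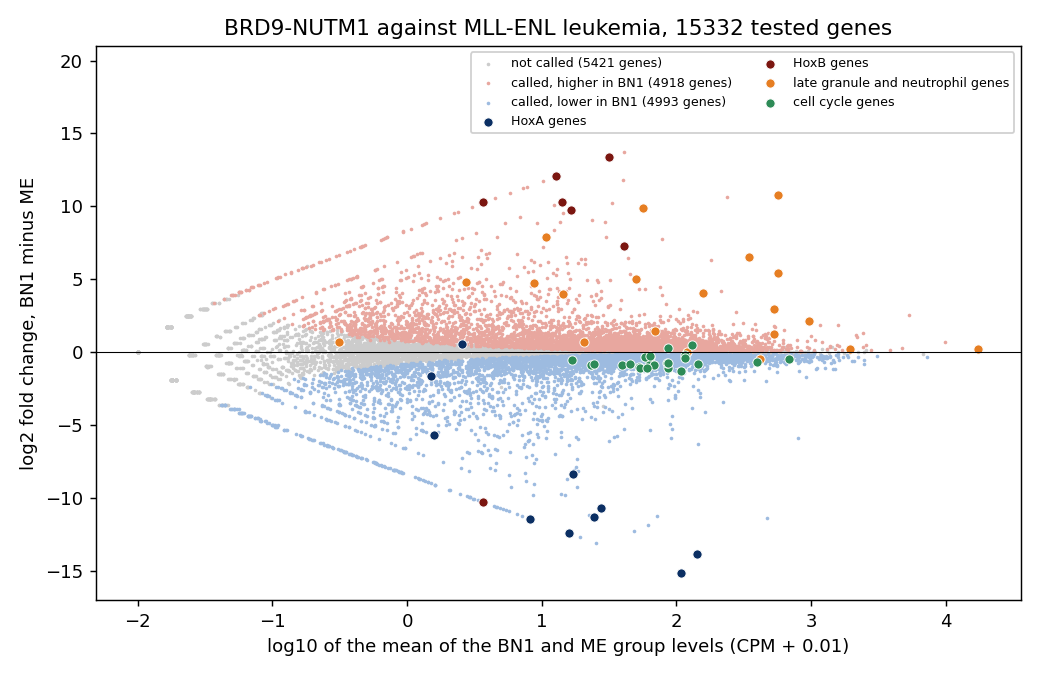
Each point is 1 of the 15332 tested genes; the x axis is the log10 mean level in CPM and the y axis the log2 fold change, BN1 minus ME. HoxA genes (dark blue) lie mostly near the bottom, with Hoxa4 at -1.65 and 1 gene not called, HoxB genes (dark red) lie at the top apart from Hoxb13, late granule genes (orange) lie mostly above 0 and cell cycle genes (green) mostly just below it.

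The clearest difference lay in the Hox clusters. Of the 10 tested HoxA genes, 9 were lower in BN1 by at least 2-fold and 1 was not called. Of the 7 tested HoxB genes, 6 were higher and Hoxb13 was lower. The median log2 fold change was -10.97 for HoxA and 10.28 for HoxB, or -9.11 and 9.02 with the genes of 0 counts in one leukemia set at their lower bound, against -0.0011 for all tested genes. None of the 18 HoxC and HoxD genes passed the filter. In each leukemia most genes of one cluster were near 0 and those of the other were active. The sequences of a microRNA from each cluster are shown because their genes followed the clusters. Capitals mark the seed, bases 2 to 8.
mmu-miR-196b-5p: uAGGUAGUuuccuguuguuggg
mmu-miR-10a-5p: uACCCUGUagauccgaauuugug
The first, in the HoxA cluster, is at chr6:52230129-52230150 on the minus strand, and the second, in the HoxB cluster, at chr11:96317186-96317208 on the plus strand, both from RefSeq on GRCm38.p6. The gene Mir196b had 1.35, 1.59 and 1.499 CPM in the ME libraries and no count in BN1, at least 35.7-fold lower. Mir10a had 2.6000, 2.301 and 1.77 CPM in BN1 and 1 count in ME, a ratio of 134 (23.8 to 5337), in brackets the 95% binomial interval for counting error. PolyA libraries count precursor RNA, not the mature microRNA, and Mir10a lies within the span of Hoxb3, so its reads cannot be told from that gene's. Hoxb8 is a known target of miR-196, and the best ungapped match in its transcript Hoxb8-201 (GENCODE M21) lay at bases 2208 to 2229, past the end of the coding part at base 1790. It is shown because the microRNA's gene was active in ME and Hoxb8 in BN1. Hoxb5, Hoxb6 and Hoxb7 had no count in ME, so this opposition was not particular to Hoxb8. Capitals mark the bases, 20 of 22, that are complementary to the microRNA by the A:U and G:C rule. The lowercase g faces a U of the seed, with which it can also pair. A match is a description, and its part in these levels was not tested.
Hoxb8 site: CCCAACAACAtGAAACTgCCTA

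Hoxa9 and Hoxa10, the HoxA genes most closely tied to MLL leukemia, were at or near 0 in BN1. Hoxa9 (chromosome 6, 52223097 to 52227370) had 0, 0.0451 and 0 CPM in BN1, 1 count in all, against 283, 282 and 292 CPM in ME, and the ratio of ME to BN1 was 20653 (3706 to 815783). Hoxa10 had no count in any BN1 library and 222, 220.2 and 205 CPM in ME, at least 5221-fold lower with a floor of 3 counts over the BN1 group (adjusted p = 5.3e-29). In neither gene did the groups overlap. MA9 resembled ME in level, with means of 362 CPM for Hoxa9 and 207 CPM for Hoxa10, and normal marrow held 3.72 and 0.248 CPM. Hoxa6 and Hoxa11 likewise had no count in BN1, at least 394-fold and 770.4-fold lower. Hoxa5 was lower, from 58.5, 54.003 and 53.2 CPM in ME to 0.0825, 0 and 0 CPM, a ratio of 2003 (554 to 16544), and Hoxa7 from 50.01, 48.3 and 47.02 CPM to 1 count, a ratio of 3515 (630.3 to 138865). Hoxa4 was the called HoxA gene with the smallest change, lower (-1.65 ± 0.29, with 0.702, 1.04 and 0.461 against 2.51, 2.31 and 1.999 CPM).

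HoxB genes of the middle of the cluster ran the other way. Hoxb5 (chromosome 11, 96303512 to 96306121) had 64.5, 58.1 and 65.5 CPM in BN1 and no count in ME, at least 1275-fold higher. Hoxb6 and Hoxb7 were also without a count in ME and were at least 518-fold and 149.7-fold higher. Hoxb8, which can block myeloid differentiation when overexpressed, had 27.4, 28.4 and 28.5 CPM in BN1 and 1 count in ME, a ratio of 1711 (307 to 67598). Hoxb3 had 31.9, 31.4 and 35.1 CPM in BN1 and 0, 0.0453 and 0.0555 CPM in ME, a ratio of 1001 (277 to 8266). For these 5 genes the lowest BN1 library lay far above the highest ME library. Hoxb4, a factor that expands blood stem cells, was measurable in both leukemias, at 77.6, 77.1 and 88.7 CPM in BN1 and 0.0966, 0.815 and 0.611 CPM in ME, a log2 difference of 7.30 ± 0.18. Its mean of 81.1 CPM in BN1 was also above the 15.5 CPM of normal marrow (log2 2.39), while ME was below it (log2 -4.91). Hoxb13, which lies apart from the rest of the cluster, had 7.58, 6.75 and 7.495 CPM in ME and none in BN1, at least 175-fold lower.

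**Figure D2:**
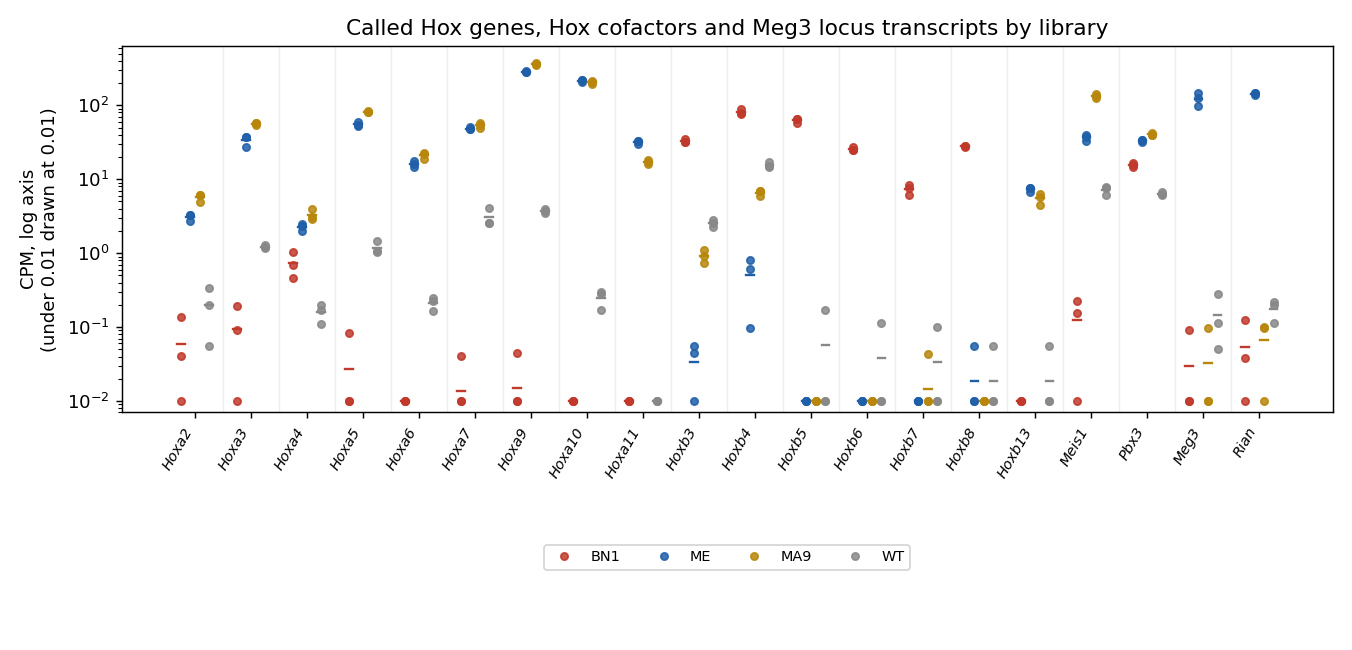
CPM on a log axis for called Hox genes, Meis1, Pbx3, Meg3 and Rian in each library; points are libraries, short bars group means, and values under 0.01 are drawn at 0.01. From Hoxa2 to Hoxa11 the BN1 points (red) lie below the ME points (blue), from Hoxb3 to Hoxb8 above them.

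Hox proteins bind DNA together with Meis and Pbx cofactors, and of 8 tested cofactors 3 were lower, 2 higher and 3 not called, with 1 higher without BN1 replicate 1, BN1 replicate 2 or ME replicate 3. Meis1 had 0, 0.226 and 0.154 CPM in BN1 and 37.4, 33.3 and 39.9 CPM in ME, a log2 difference of -8.14 ± 0.20 (adjusted p = 3.9e-22). Normal marrow held 7.15 CPM of Meis1 and MA9 134 CPM, so BN1 was the lowest of the 4 groups. Pbx3 was lower (-1.09 ± 0.08, with 14.7, 16.6 and 15.4 against 32.3, 33.4 and 33.9 CPM), and so was Pknox1 (-0.72 ± 0.05). Pbx2 was higher (0.34 ± 0.05).

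Other genes known as targets of MLL fusions were split: of 17 tested, 8 were lower and 7 higher, with a median of -0.28. Dach1, a transcriptional regulator, had 37.7, 36.9 and 40.2 CPM in ME and no count in BN1, at least 921-fold lower. Its means were 33.6 CPM in MA9 and 38.8 CPM in normal marrow, so ME was near the normal level and BN1 was the group that differed. Flt3, a receptor kinase of early progenitors, had 0.0825, 0.0902 and 0.154 CPM in BN1 and 19.4, 20.2 and 14.4 CPM in ME (-7.28 ± 0.22). Tcf4, a factor of plasmacytoid and lymphoid cells, was lower (-4.04 ± 0.10), and so was the cell cycle kinase gene Cdk6 (-1.18 ± 0.05, with 687, 650.4 and 646 against 1482, 1479 and 1535 CPM). In the other direction, Six4, a homeobox gene, had 7.14, 6.86 and 6.91 CPM in BN1 against 3 counts in ME, a ratio of 141 (48.1 to 687), with a mean of 60.2 CPM in MA9. Bcl11a, a zinc finger repressor active in B cells and progenitors, had 90.2, 91.6 and 82.3 CPM in BN1 and 1.69, 2.63 and 1.999 CPM in ME (5.37 ± 0.11), against means of 1.07 CPM in MA9 and 64.5 CPM in normal marrow.

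Among 24 genes of the fusion partners and their complexes, 11 were higher, 8 lower and 5 not called, and 5 passed 2-fold. Brdt, the testis-specific BET bromodomain gene, had 16.8, 17.5 and 16.4 CPM in BN1 and 1.35, 1.13 and 0.944 CPM in ME (3.87 ± 0.17), and the groups did not overlap. Its relatives Brd2 and Brd3 were lower (-0.15 ± 0.04 and -0.67 ± 0.05). Aff4, the scaffold of the elongation complex that ENL joins, was higher (1.16 ± 0.06), and so was Mllt6, another MLL partner, (1.16 ± 0.12), while Mllt3, the relative of Mllt1 fused in MLL-AF9, was lower (-1.34 ± 0.23), with 1.36, 1.17 and 0.653 against 2.703, 2.58 and 2.72 CPM. Dot1l, the histone methyltransferase that MLL fusions recruit, was not called (0.12 ± 0.08, adjusted p = 0.181), and Ep300, the acetyltransferase that NUTM1 binds, was higher (0.38 ± 0.05). Of 23 SWI/SNF genes, 10 were lower and 2 higher, all within 2-fold apart from Dpf3, which had a mean of 0.220 CPM in ME. Arid2, a subunit of the polybromo complex, was lower (-0.86 ± 0.05) and Phf10 of the same complex higher (0.78 ± 0.05).

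Some genes were seen in only one of BN1 and ME, taken as at least 5 CPM in all 3 libraries of one and at most 0.1 CPM in all 3 of the other. BN1 had 24 such genes and ME 39. Beside Hoxb3 and Hoxb5 to Hoxb8, the BN1 set held Marco, a scavenger receptor of macrophages, at 69.9, 87.5 and 82.8 CPM against 1 count in ME, a ratio of 4857 (871 to 191889). Slitrk2, a neuronal membrane protein, had 65.7, 67.1 and 65.1 CPM against 3 counts, a ratio of 1336 (457 to 6479). Zkscan2, a zinc finger gene, had 22.3, 19.9 and 18.5 CPM in BN1 and no count in ME, at least 409.6-fold higher. Amigo2, an adhesion protein, was at least 235-fold higher. MA9 means were 0 CPM for Marco, 1.46 CPM for Slitrk2, 0.0168 CPM for Zkscan2 and 0.112 CPM for Amigo2. Lhfp and Gal3st1 were at least 317-fold and 122-fold higher than in ME, but MA9 held more of both, with means of 30.6 and 17.7 CPM. The ME set, beside HoxA genes, held Ptprt, a receptor phosphatase, at 48.6, 50.2 and 53.5 CPM with no count in BN1, at least 1222-fold lower there. Hpse2, an inactive relative of heparanase, had 93.4, 97.3 and 99.9 CPM in ME against 1 count in BN1, a ratio of 7007 (1257 to 276790.0). Sdk1, a cell adhesion gene, had 44.1, 47.03 and 42.3 CPM in ME and 1 count in BN1, a ratio of 3231 (579 to 127666). Cchcr1 and Btbd11 had no count in BN1 and were at least 343-fold and 316-fold lower. MA9 also expressed genes of this set, with means of 11.2 CPM for Ptprt, 76.4 CPM for Hpse2 and 50.5 CPM for Sdk1, against 3.44 CPM for Cchcr1 and 2.297 CPM for Btbd11. Hpgd, the enzyme that inactivates prostaglandins, was above the limit of 0.1 CPM in BN1 but had 933, 931 and 961 CPM in ME against 0.330, 0.587 and 0.192 CPM in BN1 (-11.33 ± 0.11).

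Among genes of at least 200 CPM, Tmem178, a regulator of calcium in the endoplasmic reticulum, had 469, 465 and 486 CPM in BN1 and 0.193, 0.362 and 0.333 CPM in ME (10.61 ± 0.10), and a mean of 0.675 CPM in normal marrow. Chd3, a subunit of the NuRD repressor complex, had 353, 342 and 371 CPM in BN1 and 4.92, 5.16 and 3.33 CPM in ME (6.29 ± 0.09). Penk, the precursor of enkephalins, was higher (4.21 ± 0.06, with 404, 407 and 415 against 21.4, 21.2 and 23.9 CPM). On the ME side, Cfap57, a gene of motile cilia, had 302, 311 and 304 CPM against 18.9, 16.9 and 17.97 CPM (-4.09 ± 0.06). Gpnmb, a glycoprotein of macrophages and melanocytes, was lower in BN1 (-3.83 ± 0.07). So were the nucleoside transporter gene Slc28a2 (-3.38 ± 0.05) and the glutathione peroxidase gene Gpx3 (-3.05 ± 0.05). The rule that named these 7 genes took only called genes whose groups did not overlap, which held for 66.9% of all tested genes.

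Called genes stood side by side in 45 runs, 22 higher and 23 lower, each of at least 4 tested genes in a row called with at least 2-fold change in one direction, holding 243 genes. A run of 16 lower genes on chromosome 6 (52162417 to 52249769) was the HoxA cluster with its antisense and microRNA genes, and a run of 8 higher genes on chromosome 11 (96279401 to 96347930) was the HoxB cluster. No source used here says whether the counting used strand, so antisense genes such as Hoxb5os (14.2, 14.03 and 15.3 CPM in BN1, none in ME) cannot be told from their partners. An imprinted locus on chromosome 12 (109493125 to 109749458) held 5 lower genes. It included the long noncoding RNA Meg3, with 145, 126 and 98.2 CPM in ME and 2 counts in BN1, and Rian, with 145, 137 and 148 CPM in ME and 0.124, 0 and 0.0384 CPM in BN1 (-11.20 ± 0.17). Meg3 had a ratio of 4496 (1244 to 37129), and Mirg, the host of a microRNA group, was at least 121-fold lower. MA9 and normal marrow were also near 0 at this locus, with means of 0.0325 and 0.146 CPM for Meg3 and 0.0662 and 0.178 CPM for Rian, so ME was the one group of the 4 to express it.

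On chromosome 2, 17 genes in a row between 175185165 and 176814092 were lower in BN1, with a median log2 fold change of -6.73. They belong to a block of zinc finger genes, and in 16 of the 17 BN1 had the lowest mean of the 4 groups. Zfp966 had 0.0413, 0 and 0.307 CPM in BN1 and 17.3, 16.9 and 16.3 CPM in ME, with means of 10.4 CPM in MA9 and 10.9 CPM in normal marrow. Zfp965 had no count in BN1 and 8.35, 6.12 and 7.27 CPM in ME, at least 174-fold lower. A run of 20 higher genes on chromosome 4 (41887301 to 42959425) consists mostly of near-identical copies such as Fam205a1 to Fam205a4, and runs of 8 and 5 lower genes on chromosome 13 hold histone genes. The run of 8 also holds Zfp184, Pom121l2 and Prss16, which are not histone genes. The counting could split reads among close copies, so the values of single copies in these blocks are uncertain. Smaller runs included 4 higher Cd300 receptor genes on chromosome 11, 4 higher Ifit genes on chromosome 19 and the chemokine genes Cxcl9, Cxcl10 and Cxcl11 with Art3 on chromosome 5.

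Neutrophil granules are filled in order as cells mature: primary granules in promyelocytes, later granules and the cytosolic S100 proteins afterwards. Late granule and neutrophil genes were higher in BN1 for 17 of 20 tested members, 14 of them by at least 2-fold, with 1 lower and a median log2 fold change of 3.51. The members with the largest changes were near 0 in ME. Ltf, which encodes lactoferrin (chromosome 9, 111019292 to 111042766), had 1119.6, 1128 and 1147 CPM in BN1 and 0.531, 0.815 and 0.555 CPM in ME, a log2 difference of 10.77 ± 0.09 (adjusted p = 2.2e-34). Ngp, neutrophilic granule protein, had 692, 690.2 and 654 CPM against 6.86, 7.75 and 7.05 CPM (6.55 ± 0.06). S100a9, part of calprotectin, had 1117, 1135 and 1094 CPM against 25.4, 26.2 and 27.4 CPM (5.40 ± 0.05), and its partner S100a8 had 950.2, 1055 and 815 CPM against 104, 103 and 146 CPM (3.0 ± 0.19). Retnlg, a resistin-like secreted protein, had 111, 106 and 120.3 CPM in BN1 and 0.290, 0 and 0.0555 CPM in ME (9.86 ± 0.17). Camp, the cathelicidin gene, was higher (4.08 ± 0.10), and so were the chitinase-like gene Chil1 (7.93 ± 0.24) and the chemokine receptor gene Cxcr2 (4.02 ± 0.12). Itgam, the integrin CD11b, was the member that was lower (-0.48 ± 0.04). BN1 stayed below normal marrow in these genes, with log2 differences from WT of -3.01 for Ltf, -4.17 for Ngp, -3.86 for S100a9, -4.39 for Retnlg and -3.94 for Cxcr2. The summed level of the list was 27685 to 29345 CPM in BN1, 18351 to 21110 CPM in ME and 70930 to 74569 CPM in normal marrow. In MA9 it was 4394 to 4758 CPM. The genes whose CPM are given above made up a small part of the sums in BN1 and ME. In bulk samples a larger share of maturing cells and more RNA per cell cannot be told apart, and the part of normal granulocytes in the sorted cells was not tested.

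The start regions of 3 late granule genes with large changes, Ltf, Ngp and S100a9, are shown because these genes moved together. Each run is 300 bases, 250 before to 50 after the start of the gene in RefSeq on GRCm38.p6, read 5′ to 3′ on the gene's strand, and capitals mark matches to TTNCNNAA on either strand, a loose core of the sites bound by C/EBP factors, which drive granulocyte genes.
Ltf, chr9:111019042-111019341, plus strand: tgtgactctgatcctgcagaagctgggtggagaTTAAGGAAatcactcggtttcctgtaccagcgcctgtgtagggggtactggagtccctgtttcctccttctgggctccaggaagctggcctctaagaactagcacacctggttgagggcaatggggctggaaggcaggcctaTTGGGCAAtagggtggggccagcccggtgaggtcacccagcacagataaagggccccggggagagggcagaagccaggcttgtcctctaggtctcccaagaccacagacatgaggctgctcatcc
Ngp, chr9:110419558-110419857, plus strand: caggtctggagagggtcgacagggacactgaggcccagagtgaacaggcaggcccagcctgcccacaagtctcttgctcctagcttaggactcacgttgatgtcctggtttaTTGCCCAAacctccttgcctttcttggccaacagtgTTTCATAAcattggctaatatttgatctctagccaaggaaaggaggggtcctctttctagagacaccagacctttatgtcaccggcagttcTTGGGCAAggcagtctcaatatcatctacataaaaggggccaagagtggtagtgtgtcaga
S100a9, chr3:90695672-90695971, minus strand: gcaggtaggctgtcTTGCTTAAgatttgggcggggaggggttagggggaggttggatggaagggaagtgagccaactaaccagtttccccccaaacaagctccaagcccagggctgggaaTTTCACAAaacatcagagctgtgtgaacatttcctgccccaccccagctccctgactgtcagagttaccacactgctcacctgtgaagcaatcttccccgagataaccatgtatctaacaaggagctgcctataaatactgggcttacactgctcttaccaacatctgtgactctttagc
These windows hold 2, 3 and 2 matches. At least 1 match was found in 77.8% of the 18 late granule genes with a window in the table, in 73.7% of 19 monocyte and macrophage genes, in 37.4% of 11231 tested genes and in 40.7% of all 32851 windows. The late granule windows had a median of 3 CpG against 19 for the tested genes, and the GC box GGGCGG was in 22.2% of them against 63.1%. The TATA box TATAAA was in 44.4% of them against 9.39%. A match says only that these letters are present.

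Primary granule genes were abundant in both leukemias. Of 13 tested, 7 were higher and 5 lower, 3 in all by at least 2-fold, with a median of 0.19, and they summed to 25447 to 25904 CPM in BN1, 20575 to 21757 CPM in ME and 2870.5 to 2979 CPM in normal marrow. Mpo, myeloperoxidase, had 11981, 12026 and 12263 CPM in BN1 and 7336, 7294 and 7785 CPM in ME (0.69 ± 0.04). Elane, neutrophil elastase, was higher (0.28 ± 0.04), and Prtn3, proteinase 3, was lower (-0.81 ± 0.04). The 1 member lower by at least 2-fold had a log2 difference of -4.45. Nkg7, a protein of cytotoxic and azurophilic granules, had 141, 146 and 146 CPM against 5.99, 5.84 and 7.38 CPM (4.50 ± 0.09), and the serine protease gene Prss57 was higher (2.27 ± 0.07). Both leukemias stood above normal marrow in Mpo, with log2 differences from WT of 3.64 in BN1 and 2.95 in ME. The subunits of the phagocyte oxidase, which makes superoxide, were lower in 5 of 7 cases but by less than 2-fold, with Ncf4 at -0.64 ± 0.04 and Cybb at -0.20 ± 0.06.

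**Figure D3:**
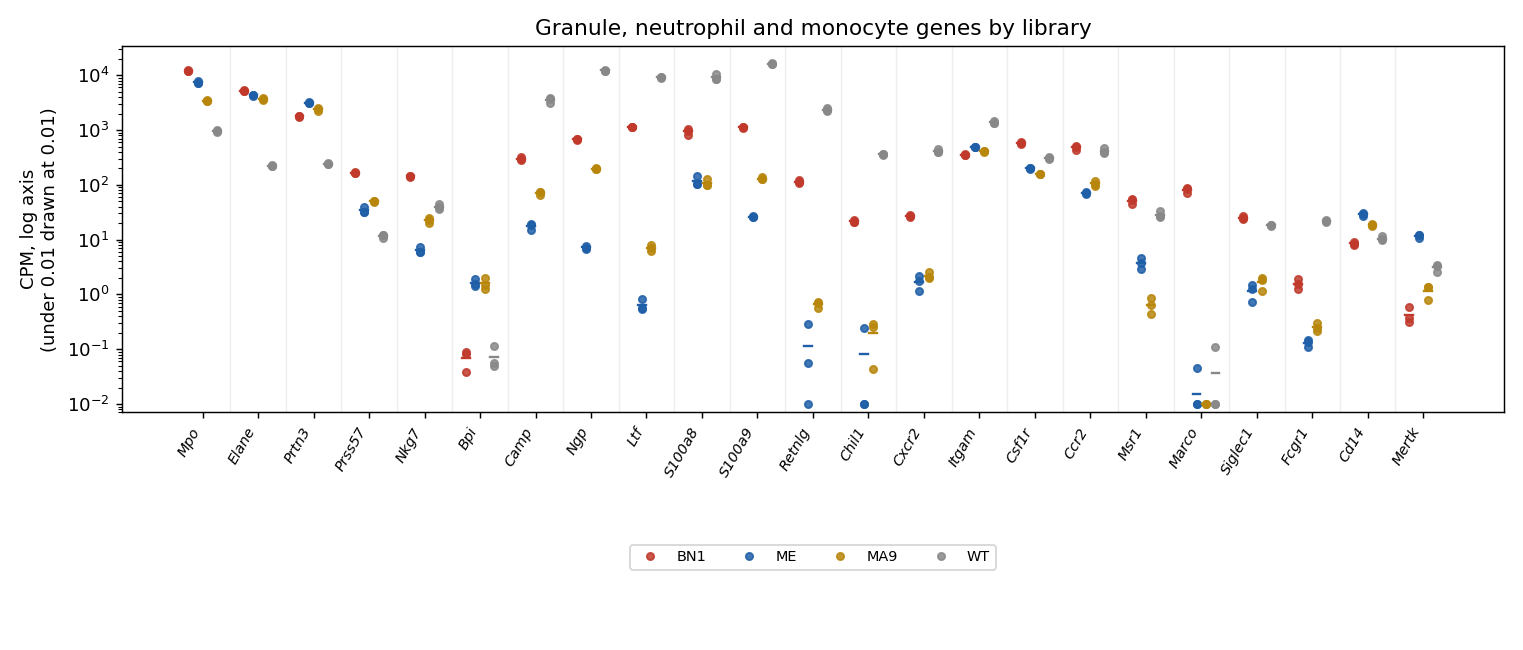
CPM on a log axis for primary granule, late granule and monocyte genes in each library; points are libraries, short bars group means, and values under 0.01 are drawn at 0.01. From Nkg7 to Cxcr2, apart from Bpi, BN1 (red) lies above ME (blue), and in the late granule genes normal marrow (grey) lies above both.

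Monocyte and macrophage genes were also mostly higher in BN1. Of 26 tested, 18 were higher and 6 lower, 16 and 3 of them by at least 2-fold, with a median of 1.31. Csf1r, the receptor that drives monocyte and macrophage growth, had 557, 571 and 593 CPM in BN1 and 203, 200.4 and 193 CPM in ME (1.53 ± 0.04). Ccr2, the receptor that draws monocytes from the marrow, had 494, 514 and 439 CPM against 73.5, 69.4 and 70.1 CPM (2.76 ± 0.09). The scavenger receptor Msr1 was higher (3.74 ± 0.13), and so was the sialic acid receptor Siglec1 (4.39 ± 0.16). Fcgr1, the high-affinity Fc receptor, was higher (3.51 ± 0.35) on levels under 2 CPM. The opposite held for Cd14, the co-receptor for endotoxin (8.295, 8.12 and 9.22 against 28.9, 30.8 and 27.3 CPM, -1.76 ± 0.10), for Fcgr4 (-1.22 ± 0.07) and for Mertk, a receptor for dying cells (0.371, 0.587 and 0.307 against 12.4, 12.4 and 10.7 CPM, -4.81 ± 0.23). The list summed to 14187 to 14876 CPM in BN1 and 3775 to 3840 CPM in ME, with normal marrow between them at 11062 to 11387 CPM.

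Toll-like receptors, which sense microbial products, and their adaptors were higher in 12 of 16 tested genes and lower in 1 (2 without ME replicate 3), with a median of 0.83. Tlr7, a receptor for single-stranded RNA, stood at 77.8, 83.4 and 74.004 CPM in BN1 against 19.99, 24.2 and 20.4 CPM in ME (1.86 ± 0.07). Its relative Tlr8 stood at 67.1, 71.01 and 61.5 CPM against 15.6, 17.1 and 14.9 CPM (2.06 ± 0.08). Ticam2, an adaptor of Tlr4, was higher (2.08 ± 0.08), while Tlr4 itself was lower (-0.44 ± 0.07). Lysosomal enzymes were mixed, with 9 of 20 higher and 4 lower, or 2 lower without BN1 replicate 1, BN1 replicate 2 or ME replicate 1. Ctsf, cathepsin F, had 43.5, 46.9 and 51.2 CPM in BN1 and 0, 0.181 and 0.0555 CPM in ME (9.06 ± 0.23), and Ctss, which processes antigen, was higher (1.06 ± 0.05).

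Genes of MHC class I presentation were higher in 15 of 17 cases and lower in none (1 with upper-quartile scaling, without BN1 replicate 3 or without ME replicate 3), with a median of 0.80 and 7 past 2-fold. Nlrc5, the activator of class I genes, had 65.3, 59.5 and 69.6 CPM in BN1 and 18.4, 18.9 and 13.3 CPM in ME (1.93 ± 0.09). H2-Q7 and H2-T22 were higher (1.86 ± 0.09 and 1.35 ± 0.06); class I genes are close copies of each other, so single values are uncertain. For MHC class II the counts were 3 higher and 5 lower of 11, with 1 higher without ME replicate 2 and 3 lower without BN1 replicate 2 or ME replicate 1. H2-Ab1, a chain of the class II molecule, had 0.867, 0.812 and 0.499 CPM in BN1 and 18.97, 18.1 and 20.7 CPM in ME (-4.73 ± 0.15), and normal marrow held 308 CPM. Interferon response genes split into 13 higher and 4 lower of 24. Gbp2, an interferon-induced GTPase, was higher (2.99 ± 0.15), and so was the chemokine Cxcl10 (2.69 ± 0.15). Irf7, a driver of type I interferon, was lower (-1.28 ± 0.08), and so was the RNA sensor Oas3 (-1.47 ± 0.07). Chemokines and their receptors counted 7 higher and 7 lower of 19.

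The transcription factors that set myeloid fate did not move in one direction: of 20 tested, 9 were higher, 6 lower and 5 not called. Klf4, which favors monocytes, was higher (1.57 ± 0.07, with 138, 148 and 153 against 55.95, 49.1 and 43.03 CPM), and so was Irf8, another monocyte factor, (0.55 ± 0.05). Irf4 was higher (3.27 ± 0.28) with 2.48, 3.11 and 2.69 against 0.0966, 0.317 and 0.444 CPM. Gfi1 and Cebpe, which favor granulocytes, were lower (-1.31 ± 0.05 and -1.28 ± 0.07), with Cebpe at 30.3, 28.9 and 34.6 CPM in BN1 and 79.5, 78.2 and 71.01 CPM in ME. Cebpe is a known activator of late granule genes, which were mostly higher in BN1, and its part in their levels was not tested. Runx1 was higher (0.75 ± 0.05) and its relative Runx3 lower (-1.80 ± 0.05). Myb, a factor of immature proliferating cells, was lower (-1.26 ± 0.04, with 474, 471 and 479 against 1165, 1144 and 1104 CPM), with 202 CPM in normal marrow.

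Surface proteins and receptors of progenitors were split, with 7 higher and 8 lower of 20. Cd38, an enzyme and activation marker, had 0.0825, 0.135 and 0.230 CPM in BN1 and 34.7, 37.8 and 35.4 CPM in ME (-7.83 ± 0.18). Cd33, a sialic acid receptor of myeloid cells, was lower (-2.81 ± 0.06, with 39.2, 36.996 and 34.7 against 264, 265 and 251 CPM). Cd34, a marker of stem and progenitor cells, was low in both, at 0.454, 0.857 and 0.499 CPM in BN1 and 2.94, 2.76 and 4.55 CPM in ME (-2.49 ± 0.24), below the 28.5 CPM of normal marrow. Kit, the receptor for stem cell factor, was lower (-0.28 ± 0.05). Higher in BN1 were Prom1, which encodes CD133, (1.43 ± 0.06), the lectin-like receptor gene Cd93 (1.19 ± 0.04) and the G-CSF receptor gene Csf3r (0.66 ± 0.04). Stem cell genes counted 4 higher and 4 lower of 13, and Gata2 was under 1 CPM in every library of both leukemias, against 43.5 CPM in normal marrow.

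Markers of other marrow cells were below the level of normal marrow in both leukemias. B cell genes summed to 8.83 to 9.34 CPM in BN1, 3.48 to 4.12 CPM in ME and 1788 to 2017 CPM in normal marrow, and 7 of 20 tested were called. Rag1, which cuts the antigen receptor genes, had no count in ME and a mean of 0.0966 CPM in BN1, against 74.1 CPM in normal marrow. T cell and NK cell genes summed to 3.16 to 3.92 CPM in BN1 and 9.94 to 10.33 CPM in ME, with 483 to 506 CPM in normal marrow, and 5 of 20 were called. Erythroid genes summed to 139 to 168 CPM in BN1 and 83.4 to 107 CPM in ME, against 35722 to 45937 CPM in normal marrow. The beta-globin gene Hbb-bs, which has a near-identical copy, was higher in BN1 (3.33 ± 0.28, with 6.27, 5.28 and 5.95 against 0.628, 0.680 and 0.389 CPM), with 10471 CPM in normal marrow. Dendritic cell genes were called in 5 of 14 cases and summed to 396 to 429.6 CPM in BN1, 358 to 385 CPM in ME and 1197 to 1287 CPM in normal marrow. Megakaryocyte genes were called in 5 of 12 cases and summed to 10.4 to 11.1, 23.8 to 26.4 and 163 to 182 CPM. Genes of eosinophils, basophils and mast cells were called in 7 of 15 cases and summed to 109 to 118, 127 to 144 and 869.8 to 897 CPM. Stromal and endothelial genes were called in 5 of 8 cases and summed to 89.9 to 93.9, 47.0 to 48.0 and 97.2 to 101 CPM, and the adhesion gene Pecam1, which leukocytes also express, made up most of their sum, with 91.2, 92.4 and 88.3 CPM in BN1 and 44.9, 45.6 and 47.02 CPM in ME. Calls among these low genes depend on single libraries: the stromal list had 3 higher members, or 1 without BN1 replicate 2, ME replicate 1 or ME replicate 3, and the T cell list had 1, or 2 without BN1 replicate 2 or ME replicate 1. Erythroid genes had 6 higher and 2 lower members, or 1 lower without BN1 replicate 1 or ME replicate 1. The part of these cells in the results was not tested.

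Proliferation genes were lower in BN1 almost without exception, by small amounts. Of 24 cell cycle genes, 22 were lower and 2 higher, with a median of -0.76, and 5 passed 2-fold. Mybl2, a driver of the G2 to M program, had 60.2, 63.8 and 65.6 CPM in BN1 and 152, 154 and 157 CPM in ME (-1.29 ± 0.05). Ccna2, cyclin A, was lower (-1.10 ± 0.06), and so was Plk1, a mitotic kinase, (-1.01 ± 0.06). E2f2 and Cdc20 were higher (0.48 ± 0.05 and 0.28 ± 0.06). DNA replication genes were lower in 22 of 24 cases, with a median of -0.61. Rrm2 and Rrm1, the subunits of ribonucleotide reductase, were lower (-1.32 ± 0.05 and -1.10 ± 0.05), with Rrm2 at 86.8, 94.7 and 91.1 against 227, 219.95 and 233 CPM. Pole, a catalytic subunit of DNA polymerase, was the member that was higher (0.41 ± 0.05). The cell cycle list also had 22 lower members under each of the other 3 scalings run. It summed to 2156 to 2175 CPM in BN1 and 3062 to 3331 CPM in ME, both below the 4681 to 4898 CPM of normal marrow. DNA replication genes summed to 2643 to 2700 CPM in BN1 and 3959 to 4163 CPM in ME, with normal marrow between them at 3156 to 3384 CPM.

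Among regulators of entry into the cycle, 14 genes were tested, 5 of them higher and 8 lower. Cdkn2c, an inhibitor of Cdk4 and Cdk6, had 224, 224 and 247 CPM in BN1 and 33.9, 35.4 and 30.1 CPM in ME (2.80 ± 0.07). Cdkn1b was higher (0.84 ± 0.07), and Cdkn1c and Cdkn2a were lower (-1.88 ± 0.07 and -1.73 ± 0.15). D cyclins, the partners of Cdk4 and Cdk6, went opposite ways. Ccnd1 had 11.8, 11.2 and 12.1 CPM in BN1 and 1.54, 1.86 and 0.777 CPM in ME (3.03 ± 0.18), and Ccnd2 had 0.495, 0.406 and 0.845 CPM in BN1 and 4.39, 5.44 and 6.27 CPM in ME (-3.16 ± 0.21).

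Myc, the growth regulator, had 72.96, 68.4 and 74.8 CPM in BN1 and 162, 158 and 139 CPM in ME (-1.09 ± 0.06), and genes of ribosome biogenesis were lower in 16 of 20 cases, with a median of -0.40. Dkc1, the pseudouridine synthase of the nucleolus, was lower (-1.80 ± 0.07, with 65.4, 68.7 and 59.9 against 210.3, 210.2 and 255 CPM), and so was Nop56, another protein of the nucleolus, (-1.03 ± 0.05). Polr1a, the large subunit of RNA polymerase I, was lower (-0.96 ± 0.06). Npm1 was called higher (0.15 ± 0.06) and lost that call with upper-quartile scaling (adjusted p = 0.0575) and without BN1 replicate 1 (0.113), BN1 replicate 2 (0.129), ME replicate 1 (0.132) or ME replicate 2 (0.212), and with the replicate number as a block (0.0583). Ribosomal protein genes were lower in 17 of 21 cases with none past 2-fold and a median of -0.32. Rpsa was lower (-0.61 ± 0.04), while Rpl4 was higher (0.48 ± 0.05); many have processed copies elsewhere in the genome. Members of the wider Myc network were split, with 4 of 11 higher and 4 lower, or 2 lower without BN1 replicate 1. Mycl was one of the latter and rests on 1 library: it had 0.278 CPM in ME replicate 3 and no count in the other 5 libraries. Mitochondrially encoded genes were higher in 4 of 13 cases and lower in none.

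**Figure D4:**
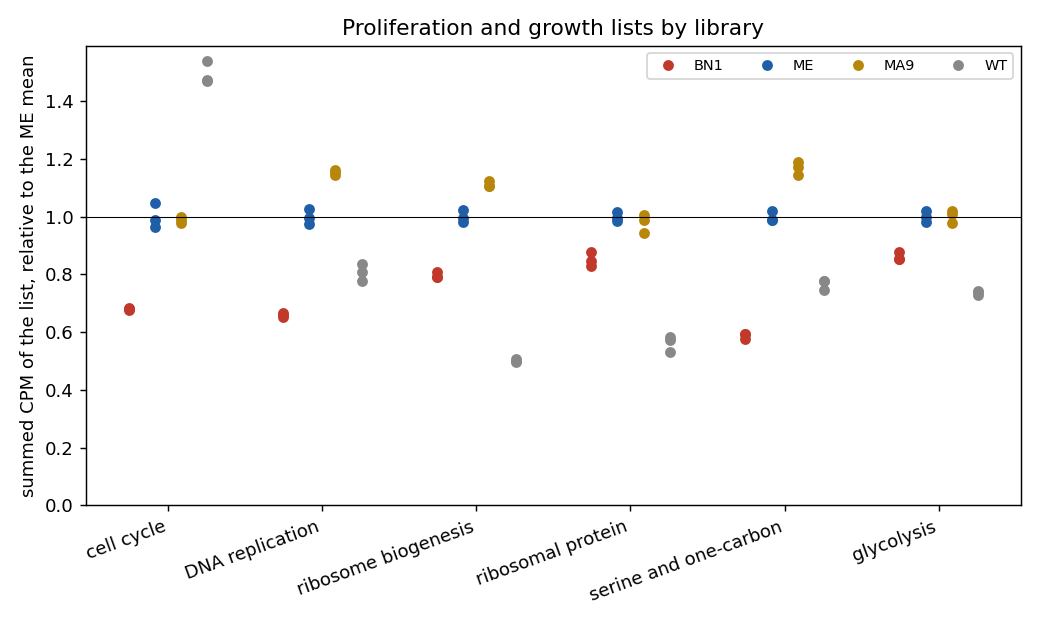
Summed CPM of 6 gene lists in each library, divided by the mean of the ME libraries; points are libraries and the line marks 1. The BN1 points (red) lie below the ME points (blue) in all 6 lists.

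Serine and one-carbon units are used for nucleotide synthesis, and of 18 tested genes of their list 13 were lower and 4 higher, with a median of -0.50. Asns, asparagine synthetase, which itself makes neither serine nor one-carbon units, had 4.705, 4.56 and 4.07 CPM in BN1 and 45.4, 41.8 and 54.8 CPM in ME (-3.41 ± 0.10). Phgdh, the first enzyme of serine synthesis, was lower (-1.98 ± 0.10), and so was the folate enzyme Aldh1l1 (-3.76 ± 0.21), whereas its mitochondrial relative Aldh1l2 was higher (2.22 ± 0.42) with 2.27, 1.94 and 1.15 against 0.338, 0.544 and 0.222 CPM. Glycolysis genes were lower in 15 of 21 cases. Ldhb, a subunit of lactate dehydrogenase, had 0.371, 0.496 and 0.230 CPM in BN1 and 20.8, 20.5 and 21.8 CPM in ME (-5.85 ± 0.19); Ldha, the other subunit, was lower (-0.81 ± 0.04). The glucose transporter Slc2a3 went the other way, at 18.6, 16.6 and 16.9 CPM against 1.303, 1.54 and 1.28 CPM (3.65 ± 0.13). For cholesterol and fatty acid synthesis, 8 of 22 genes were higher and 9 lower. Fasn, fatty acid synthase, was lower (-2.67 ± 0.08), and so was Elovl6, which lengthens its products, (-2.54 ± 0.16). Scd2, a desaturase gene, was higher (0.85 ± 0.04).

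Immediate early and MAPK feedback genes counted 9 higher and 5 lower of 22. Fos was higher (1.65 ± 0.20, with 161, 173 and 171 against 46.3, 51.1 and 63.96 CPM), and so was Dusp6, a phosphatase of ERK, (1.45 ± 0.08). Dusp1, a phosphatase of stress kinases, was lower (-3.37 ± 0.22), and so was Spry1, an inhibitor of receptor signaling, (-4.14 ± 0.46). All 3 tested Pim kinase genes, targets of cytokine signaling, were lower, with Pim1 at -1.84 ± 0.08, Pim2 at -1.17 ± 0.15 and Pim3 at -1.16 ± 0.12. Cish and Socs5, feedback inhibitors of cytokine receptors, were higher (1.09 ± 0.19 and 1.90 ± 0.12), and Socs1 was lower (-1.15 ± 0.18). Socs and Pim genes together counted 5 higher and 4 lower of 13, or 3 higher without BN1 replicate 3, ME replicate 1 or ME replicate 3.

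Of 17 genes known as p53 targets, 12 were higher and 2 lower, with a median of 0.31. Btg2, a brake on division, was higher (1.64 ± 0.06), and so was the stress gene Trp53inp1 (1.47 ± 0.09). Pmaip1, which encodes the death protein NOXA, was lower (-1.87 ± 0.07, with 21.3, 23.01 and 20.6 against 76.2, 78.8 and 82.3 CPM). Bcl2 family genes counted 7 higher and 3 lower of 15, or 5 lower with upper-quartile scaling and without BN1 replicate 2, ME replicate 1 or ME replicate 3. Mcl1, a survival gene of myeloid cells, was higher (0.42 ± 0.04), and the Bcl2a1 copies Bcl2a1b and Bcl2a1d were higher (2.62 ± 0.31 and 2.06 ± 0.35), on low levels and with reads that near-identical copies may share. Integrin and adhesion genes were lower in 13 of 22 cases and higher in 6. Itgb7 was lower (-3.88 ± 0.09, with 3.84, 3.34 and 4.84 against 61.8, 62.4 and 54.02 CPM), and so were the platelet integrin gene Itgb3 (-3.74 ± 0.12) and the adhesion gene Icam2 (-2.35 ± 0.08).

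Enzymes of DNA methylation counted 5 higher and 8 lower of 16, with 2 past 2-fold. Dnmt3a, a de novo methyltransferase often mutated in myeloid leukemia, had 7.68, 8.26 and 9.02 CPM in BN1 and 57.7, 55.95 and 55.3 CPM in ME (-2.76 ± 0.07), and MA9 and normal marrow held means of 58.4 and 60.9 CPM. Uhrf1, which guides maintenance methylation, was lower (-0.99 ± 0.04) and Tet3, which oxidizes methylcytosine, higher (0.71 ± 0.06). Polycomb genes, which keep Hox genes silent, counted 7 higher (4 without ME replicate 2) and 11 lower of 23, with 2 past 2-fold; Phf19 was lower (-1.25 ± 0.08). Fetal-type RNA-binding and chromatin genes, a list that also holds the noncoding RNA Meg3 described above, counted 2 higher and 5 lower of 7. Hmga1, a chromatin protein of immature cells, was lower (-1.34 ± 0.04) and its relative Hmga2 higher (1.46 ± 0.11). Germ-line genes counted 3 higher and 1 lower of 7. Tdrd9, a helicase of the piRNA pathway, had 62.6, 56.4 and 60.2 CPM in BN1 and 0.386, 0.0453 and 0.333 CPM in ME (7.88 ± 0.21). Dmrtb1, a testis transcription factor, was at 355, 349.8 and 367 CPM in BN1 and 168, 177 and 170.2 CPM in ME (1.06 ± 0.05), with means of 3.18 CPM in MA9 and 0.0915 CPM in normal marrow, so both leukemias of this comparison expressed it.

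**Figure D5:**
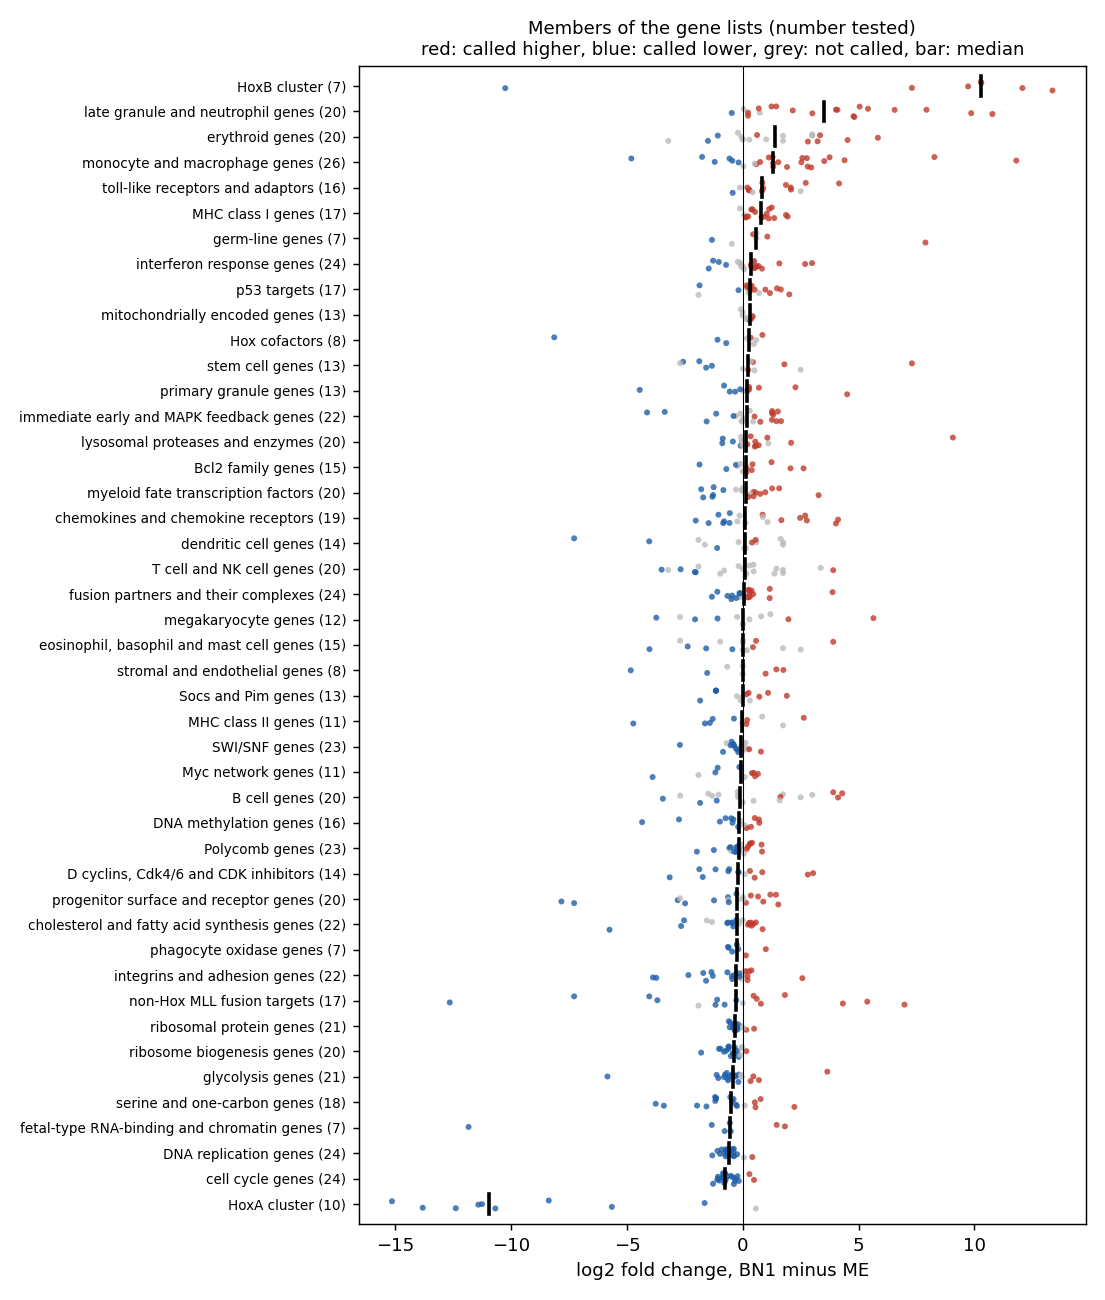
Log2 fold change, BN1 minus ME, of the tested members of each gene list, with the number tested in brackets; points are genes, colored by call, and black bars are medians. HoxB and HoxA lie at the ends, late granule and monocyte lists have medians of 3.51 and 1.31, and the cell cycle list has a median of -0.76.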

How the data were processed

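PolyA RNA of the 12 libraries was sequenced from a stranded mRNA kit, per the labels' protocols. The submitters' processing notes name HISAT2, featureCounts, DESeq2 and build mm10; no version or strand setting was found in the sources used here. The deposited table holds the authors' raw gene counts, which were used as deposited. Totals were 18292636 to 25732049 counts a library, and the number of counts sets the precision of genes near 0; intervals and floors cover counting error only.

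LOC101056014 and Lars2 were left out. Genes were filtered with filterByExpr, scaled by TMM (trimmed mean of M values) and tested with edgeR 4.0.16 (R 4.3.3) in a robust quasi-likelihood fit of all 12 libraries, group only, with the contrast BN1 minus ME and Benjamini-Hochberg adjustment. The standard error is the log2 fold change divided by the square root of F and is approximate. CPM were computed with the scaled library sizes. Where a group had no count, the fold is a lower bound, with the empty group set to 3 counts in all. With 1 to 3 counts, the ratio and its exact 95% binomial interval are given. The fit was tested on simulated counts with 200 changed genes.

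The members and the 46 gene lists were chosen with earlier results of these data known. Named are the largest changes per direction, 14 at a mean of at least 5 CPM in the higher group and 8 at 200 CPM or more. Such changes were taken only from called genes whose groups did not overlap. Also named are up to 5 called members per list and direction, all Hox and fusion partner genes, and runs of neighbouring genes. Xist, the Y-linked genes, the 3 promoters, the Cd300 and Ifit runs and Fam205a genes were picked out of these after their values were seen. Replicate numbers did not pair the samples, and no 2 libraries agreed within sampling noise. Positions, promoters and microRNAs are RefSeq's on GRCm38.p6, whose chromosomes are those of mm10. Alternatives were limma-voom 3.58.1, DESeq2 1.42.0, other scalings and filters, fewer libraries, and a replicate block. Results for a few genes are not reported here.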

Additional observations from a re-analysis of the deposited data

How the results depend on the processing

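Against 9911 calls in all, there were 9765 with DESeq2, 9967 with limma-voom, 9913 to 9947 with 3 other scalings, 10363 without a filter, 8299 with at least 5 CPM in 3 libraries and 9556 in a fit of the BN1 and ME libraries alone. Leaving out 1 library gave 9352 to 9670 calls, 4642 to 4772 higher and 4710 to 4898 lower. Calls with at least a 2-fold change numbered 3338 to 3421, 1712 to 1787 of them higher and 1591 to 1670 lower. With the filter at 5 CPM there were 1999 such calls, 1065 higher and 934 lower, as fewer genes were tested, and a test against a minimum change of 2-fold called 1155 higher and 1152 lower. At a length of at least 6 genes there were 7 runs, and at a level of at least 10 CPM 22 genes were seen in ME only. The Mycl log2 fold change was 0 without ME replicate 3, the 1 library with its counts, and -4.51 to -3.87 without another. Replicate numbers carried no pairing (same-numbered BN1 and ME libraries correlated at 0.0118, -0.0396 and -0.0822 after group means were removed). With the replicate block 9748 genes were called, 3339 of them with at least a 2-fold change. Of 593 named genes, 589 kept direction and call with DESeq2, 576 with limma-voom and 565 to 572 without 1 library. Genes under about 1 CPM are limited by depth.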
